A study of Caenorhabditis elegans with 18 samples.

Results

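Wild-type *C. elegans* (strain N2) fed on *Lactobacillus rhamnosus* CNCM I-3690 for 10 days were compared with worms of the same strain fed for 10 days on *E. coli* OP50, the usual laboratory food and the control diet. The comparison takes the 3 arrays labelled with CNCM I-3690 and 10 days and the 3 arrays labelled with OP50 and 10 days, which are 6 of the 18 arrays of the study. The other arrays are 3 each of OP50 and CNCM I-3690 after 3 days of feeding, and 3 each after 3 and 10 days on *L. rhamnosus* CNCM I-4317, the *Lactobacillus* strain that the study used for contrast. No mutation, drug or stress treatment is named for any of these groups. Populations were synchronized from embryos of gravid adults kept on each diet, so a diet was that of the worms and of their mothers. Total RNA of whole worms was hybridized to Affymetrix *C. elegans* Genome Arrays. A value is the log2 expression of a probe set, a set of short probes designed against 1 transcript or a few related ones, and every change below is CNCM I-3690 minus OP50 on this scale. The study's methods speak of biological replicates, but in another number than the 3 arrays of each group used here, and the labels number the arrays 1 to 3 without naming a culture, so the p-values measure the spread between these samples.

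A worm eats bacteria by grinding them in the pharynx and digesting them in an intestine of few, large cells. These cells secrete lysozymes and pore-forming saposin-like proteins that open bacteria, and proteases that digest them, and they also hold the lipid stores and the enzymes that clear foreign compounds. The food itself supplies vitamin B12, folate and heme, and worm genes for fat desaturation, propionate breakdown and methionine use are known to respond to the bacterium eaten. The skin below the cuticle, the hypodermis, makes the collagens of the cuticle. In RNA of whole worms, fewer cells of a type and less RNA per cell cannot be told apart.

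Markers of the gut, muscle and oocytes were high on the 6 arrays, and 1 OP50 array stood apart in several tissues. The intestinal actin gene *act-5* was between 5.16 and 6.80, the muscle gene *unc-15* (paramyosin) between 6.53 and 8.15, and the yolk receptor gene *rme-2* of oocytes between 8.57 and 8.81, against array medians of 1.27 to 1.34. Pearson's r between arrays of the same diet lay between 0.981 and 0.994, over probe sets that are not independent of each other. On OP50 replicate 1 the mean level of 22 muscle genes was 6.11, against 4.68 and 4.59 on the other OP50 arrays and 5.63, 5.22 and 5.16 on CNCM I-3690. All 22 muscle genes, and 103 of 148 cuticle collagens, were highest on that array among the OP50 arrays. Its residual SD was also the largest, 0.282 against 0.155 to 0.212 on the other 5 arrays. Counts are therefore also given without it. The major sperm protein (*msp*) genes split arrays within a group: their mean was 5.26, 4.71 and 1.71 on CNCM I-3690 and 1.73, 2.26 and 1.71 on OP50. No sperm gene of 78 was called by limma (16 had an unadjusted p under 0.05), although *msp-65* had a mean change of 3.08 (adjusted p = 0.422).

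**Figure D1:**
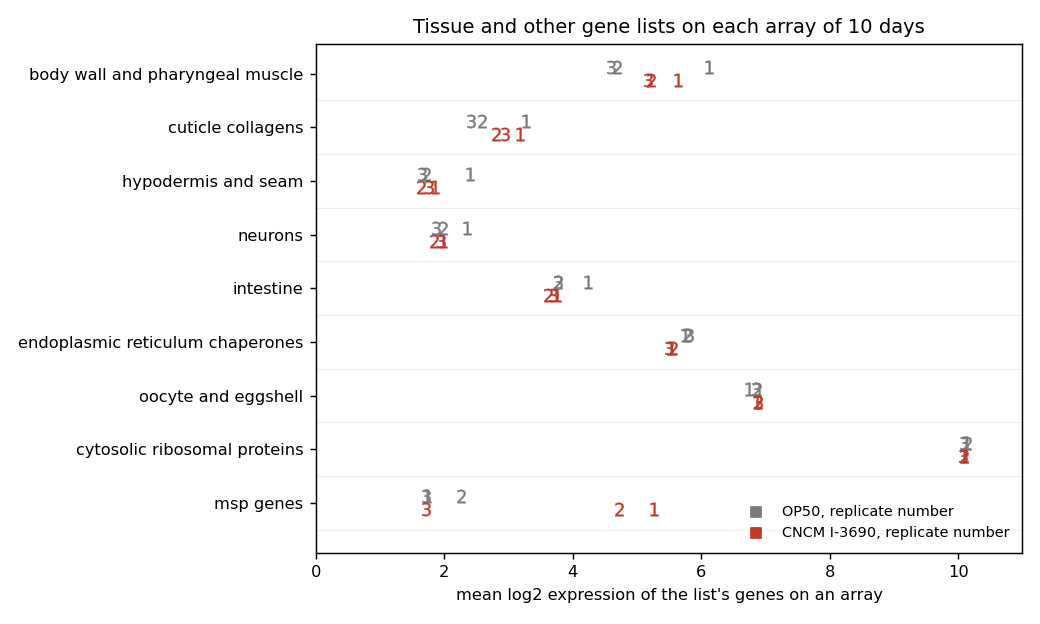
Mean log2 expression of the genes of a list on each array of 10 days (x axis), with the replicate number as the symbol, in grey for OP50 and red for CNCM I-3690. OP50 replicate 1 lies highest of the 6 arrays for muscle (6.11), cuticle collagens, hypodermis, neurons and intestine, while the ER chaperones lie lower on all 3 CNCM I-3690 arrays and the msp genes are high on 2 of the 3.

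Of 22625 probe sets, 122 (0.539%) changed between the diets at a Benjamini-Hochberg adjusted p under 0.10 in limma, which is what "called" means below. On CNCM I-3690, 81 were higher (0.358%) and 41 lower (0.181%). An unadjusted p under 0.05 was reached by 1646 probe sets (7.28%). In all 122 the arrays of one diet lay above those of the other. Of all probe sets, 5.49% were higher on every CNCM I-3690 array than on any OP50 array and 6.35% were lower. Changes of at least 1 on the log2 scale, a doubling or more, were reached by 47 of the called rises and 18 of the called falls. The median called rise was 1.1 and the median called fall -0.89. Called changes ran from -3.44 for *ilys-2* to 2.79 for *hrg-7*, while the median over all probe sets was -0.01.

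The 122 probe sets name 107 genes: 112 carry 1 symbol, 8 carry several, and 2 are unnamed. Of the 122, 36 carry a suffix letter for probes that can match several transcripts. Those of *H25K10.4*, *lys-7*, *abf-2*, *sams-2*, *folt-2*, *crt-1*, *hsp-3* and *pdi-2* are among them. Of 22 genes with more than 1 probe set of their own, all sets were called in 4, namely *C14C6.5*, *cyp-35C1*, *F14H12.3* and *W02G9.4*. In 21 of the 122 the lower group mean lay under the highest array median, near the floor of the arrays, where RMA compresses differences. In *clec-210*, *fbxa-163*, *fbxa-99*, *unc-2* and *F54E4.3* both group means lay there. The files used here hold no detection calls, so whether these transcripts were above background is not known. Without OP50 replicate 1, 221 probe sets were called (165 higher, 56 lower), 95 of the 122 among them. The count was 73 and 97 without OP50 replicates 2 and 3, and 81, 72 and 71 without CNCM I-3690 replicates 1, 2 and 3. Of these, 62, 69, 63, 64 and 59 were among the 122. Of the 112 called probe sets with 1 symbol, 33 (26 higher, 7 lower) were called in each of the 6 fits without 1 array.

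**Figure D2:**
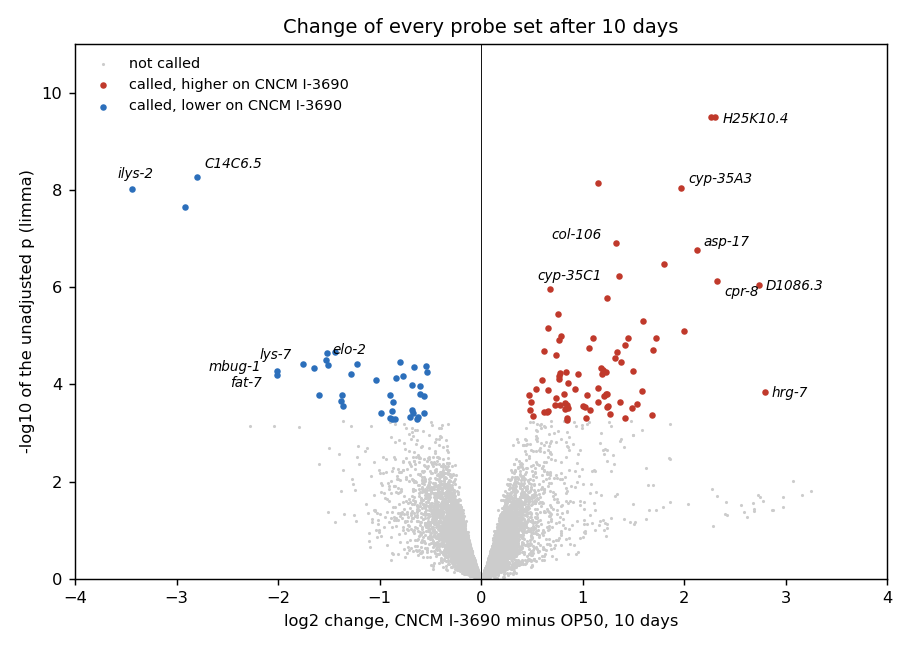
Log2 change between the diets after 10 days (x axis, CNCM I-3690 minus OP50) and -log10 of the unadjusted limma p (y axis) for every probe set. Red points are the 81 probe sets called higher and blue points the 41 called lower, with leading genes named. Called points reach -3.44 (*ilys-2*) on the left and 2.79 (*hrg-7*) on the right, and grey points were not called.

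The largest fall was in an antibacterial lysozyme gene. The invertebrate-type lysozyme gene *ilys-2* was at 4.35, 5.09 and 4.81 on the OP50 arrays and at 1.62, 1.1 and 1.19 on the CNCM I-3690 arrays, a change of -3.44 (standard error 0.32, adjusted p = 3.56e-05). The CNCM I-3690 mean of 1.30 lay among the array medians, near the floor of the arrays, so no fold is given. *lys-7*, a lysozyme of the amoeba type that defends worms against pathogens, was at 8.90, 9.79 and 9.4 on OP50 and at 7.23, 7.87 and 7.71 on CNCM I-3690, a change of -1.76 (standard error 0.31, adjusted p = 0.0227). The groups did not overlap in either gene, which held for every called probe set. The antibacterial peptide gene *abf-2* fell as well, from 5.63, 6.38 and 5.86 to 4.28, 5.09 and 4.82 (log2 change -1.22, standard error 0.22, adjusted p = 0.0227).

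The other lysozymes varied. *ilys-5* rose, with 8.89, 8.72 and 9.03 on OP50 and 9.33, 9.29 and 9.42 on CNCM I-3690, a change of 0.47 (standard error 0.10, adjusted p = 0.0486). Its other 2 probe sets were at 0.49 and 0.51 (adjusted p = 0.0612 and 0.102), and all 3 carry a suffix letter for probes that can match several transcripts. *ilys-3*, a lysozyme of the gut, was at 7.21, 7.21 and 7.5 on OP50 and 4.50, 5.5 and 5.09 on CNCM I-3690, and its change of -2.28 missed the threshold (standard error 0.55, adjusted p = 0.107) although the arrays did not overlap. Of 6 invertebrate-type lysozymes 1 rose and 1 fell (median -0.07), where the rise is the *ilys-5* set at 0.49, which was called in none of the 6 fits without 1 array (adjusted p up to 0.208). Of 10 amoeba-type lysozymes 1 fell (median 0.17). Over all 17118 genes with a probe set of their own, 64 rose (0.374%) and 32 fell (0.187%), 0.561% together, with a median of -0.01. The called counts of all lists below are to be read beside these shares. In the amoeba-type family *lys-1*, *lys-2* and *lys-8* had changes of -0.05, 0.42 and 0.21 (adjusted p = 0.997, 0.785 and 0.859). *ilys-2* was called in all 6 fits without 1 array, while *lys-7* lost its call without CNCM I-3690 replicate 1 and OP50 replicate 2 (adjusted p up to 0.107), *abf-2* without OP50 replicate 2 (0.104) and the *ilys-5* set at 0.47 in each fit but those without OP50 replicates 1 and 3 (up to 0.194).

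Some saposin-like proteins, which form pores in bacterial membranes, rose. *spp-12* was at 3.31, 3.11 and 3.03 on OP50 and at 6.07, 4.78 and 4.59 on CNCM I-3690, a 3.99-fold rise and a log2 change of 2.0 (standard error 0.31, adjusted p = 0.00946). *spp-4* was at 3.89, 4.15 and 4.28 and 5.91, 5.22 and 5.53, a change of 1.44 (standard error 0.23, adjusted p = 0.0112). Both were called in every fit without 1 array. In *spp-12* the first CNCM I-3690 array lay far above the other two, and all 3 lay above OP50. A probe set shared by *spp-21* and *spp-9* was higher by 1.69 (adjusted p = 0.0166) and cannot be assigned to either. Of 18 saposin-like genes with a probe set of their own, 2 rose and none fell (median 0.15). The nearest to the threshold were *spp-31* at 0.82 (adjusted p = 0.102) and *spp-8* at 0.59 (adjusted p = 0.105).

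A few genes of the induced immune response were called, beside a share of 0.561% over all genes with a probe set of their own. *irg-3*, an infection response gene, was at 4.16, 4.29 and 4.25 on OP50 and 6.54, 5.07 and 5.18 on CNCM I-3690, a change of 1.37 (standard error 0.29, adjusted p = 0.0612), in which replicate 1 of CNCM I-3690 was far above the others. A probe set of *fip-2*, a gene named for its induction by fungi, rose by 1.27 (adjusted p = 0.0855), while its other probe set was at 1.17 (adjusted p = 0.174). Of 36 antibacterial and antifungal peptide genes only *abf-2* was called, and their median was 0.47 (0.22 without OP50 replicate 1). One probe set of *tir-1*, the TIR-domain adaptor upstream of the p38 kinase of immunity, fell from 2.26, 1.93 and 1.91 to 1.32, 1.02 and 1.43 (log2 change -0.77, standard error 0.15, adjusted p = 0.027). The second *tir-1* set had the same mean change, -0.77, with an adjusted p of 0.342. Among 220 C-type lectins 2 rose, *clec-47* by 1.24 (adjusted p = 0.0678) and *clec-210* by 0.79 (0.0112), and the median was -0.0012. The galectin *lec-6*, which binds sugar chains of glycoproteins, rose by 0.73 (0.0676), 1 of 12 galectins. *clec-210* was called in all 6 fits without 1 array, but both its means (0.51 on OP50 and 1.30 on CNCM I-3690) lay under the highest array median. *irg-3* lost its call without each OP50 array (adjusted p up to 0.151), *tir-1* without CNCM I-3690 replicate 2 (0.142), and *clec-47*, *lec-6* and *fip-2* kept theirs only without OP50 replicate 1 (up to 0.241, 0.25 and 0.293 otherwise).

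A few digestive proteases changed, in both directions. *cpr-8*, a cysteine protease of the cathepsin B type, was at 2.0, 1.67 and 1.69 on OP50 and at 4.14, 4.04 and 4.14 on CNCM I-3690, a 5.0-fold rise and a log2 change of 2.32 (standard error 0.30, adjusted p = 0.00144). *asp-17*, an aspartyl protease, was at 1.07, 1.6 and 1.16 on OP50 and 3.29, 3.37 and 3.53 on CNCM I-3690, a rise (log2 change 2.12, standard error 0.24, adjusted p = 0.000433). Its OP50 mean of 1.28 lay under the highest array median, near the floor, so no fold is given. In both genes the arrays of a diet lay close together and the diets far apart. A paralog went the other way: *cpr-2* was at 2.24, 3.59 and 3.70 on OP50 and 1.73, 1.63 and 1.62 on CNCM I-3690, a change of -1.52 (standard error 0.26, adjusted p = 0.0167). Its fall was carried by OP50 replicates 2 and 3, since replicate 1 lay nearer to CNCM I-3690. *tag-196*, a cathepsin F-like protease, fell by 0.53 (standard error 0.10, adjusted p = 0.0262).

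Of 40 gut and lysosomal proteases, 2 rose and 2 fell, and the median was 0.06. Next to the threshold were *asp-4*, a lysosomal cathepsin D, at 0.63 (adjusted p = 0.111), and *cpz-2*, a cathepsin Z-like protease, at -0.68 (adjusted p = 0.126). *cpr-8*, *asp-17* and *cpr-2* were called in every fit without 1 array, and *tag-196* was not called without CNCM I-3690 replicate 2 or OP50 replicate 2 (adjusted p up to 0.11). Without OP50 replicate 1, *asp-4* was called as well, at 0.77 (adjusted p = 0.0278), and 5 proteases rose.

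The largest called rise belonged to a gene of the heme response. Worms cannot make heme and take it from their food, and *hrg-7* encodes a protease-like protein that the intestine secretes as a signal of low heme. It was at 4.81, 3.65 and 3.34 on OP50 and 6.55, 6.65 and 6.98 on CNCM I-3690, a 6.93-fold rise and a log2 change of 2.79 (standard error 0.56, adjusted p = 0.0462). The 3 CNCM I-3690 arrays lay close together and the OP50 arrays were spread, and the call was kept only in the fit without OP50 replicate 1 (adjusted p = 0.0169 there, and up to 0.173 in the other 5 fits). *hrg-1*, a transporter that brings heme out of lysosomes, was at 3.34, 3.16 and 2.92 and 4.35, 4.49 and 4.32, a change of 1.24 that was not called (standard error 0.34, adjusted p = 0.211). Of 8 listed genes of the heme response *hrg-7* alone was called, and the median was 0.07.

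**Figure D3:**
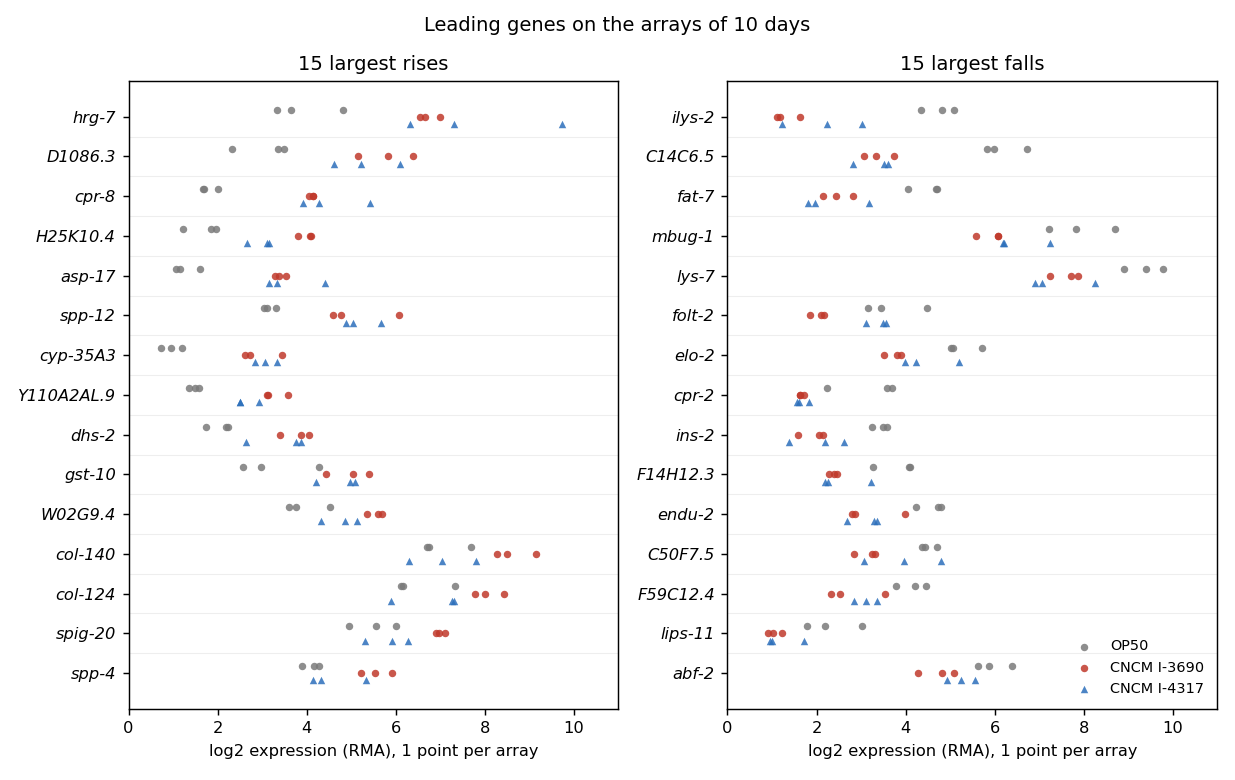
Log2 expression on each array of 10 days (x axis, 1 point per array) for the 15 genes with the largest called rises and the 15 with the largest called falls, with OP50 in grey, CNCM I-3690 in red and CNCM I-4317 as blue triangles. In every gene shown the 3 red points lie on one side of the 3 grey points, as for *ilys-2* (1.1 to 1.62 against 4.35 to 5.09).

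Enzymes that clear foreign and lipid-like compounds mostly rose where they changed. The cytochrome P450 *cyp-35A3*, of an intestinal subfamily known to be induced by foreign compounds, was at 0.96, 1.20 and 0.73 on OP50 and 2.73, 2.63 and 3.44 on CNCM I-3690, a rise (log2 change 1.97, standard error 0.18, adjusted p = 3.56e-05). All its OP50 values lay under the array medians, so no fold is given. *cyp-35C1* was at 4.35, 4.53 and 4.92 on OP50 and 6.17, 5.77 and 5.92 on CNCM I-3690 in one probe set (log2 change 1.36, standard error 0.17, adjusted p = 0.00123), and its other set changed by 1.24 (adjusted p = 0.00257). Neither gene's groups overlapped, which held for every called probe set, and both genes were called in all 6 fits without 1 array. Of 10 *cyp-35* genes 2 rose (median 0.39), and *cyp-35A2* at 0.69 (adjusted p = 0.437) and *cyp-35B1* at 0.60 (adjusted p = 0.811) were not called. The share that rose over all genes with a probe set of their own was 0.374%. Among 63 other P450 genes *cyp-37A1* rose by 1.21 (adjusted p = 0.0499) and *cyp-32B1* by 0.92 (0.0434). *cyp-14A3* had a larger mean change with a wide spread, with 3.29, 1.42 and 1.6 on OP50 and 3.04, 4.16 and 4.65 on CNCM I-3690 (log2 change 1.85, adjusted p = 0.263).

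The conjugating enzymes followed in part. *gst-4*, a glutathione S-transferase widely used as a reporter of the oxidative stress response, was at 3.83, 3.92 and 4.07 on OP50 and 5.46, 5.03 and 5.05 on CNCM I-3690, a 2.37-fold rise (log2 change 1.24, standard error 0.25, adjusted p = 0.0486). *gst-10*, another member, was at 4.27, 2.98 and 2.57 and 5.41, 4.43 and 5.04 (log2 change 1.68, standard error 0.38, adjusted p = 0.0864), with OP50 replicate 1 close to the lowest CNCM I-3690 array. These were the 2 called of 45 glutathione S-transferases, whose median was 0.01. The share called over all genes with a probe set of their own was 0.561%. Of 64 UDP-glucuronosyltransferases, which attach sugars to small molecules, *ugt-41*, *ugt-25* and *ugt-21* rose by 1.25, 1.15 and 0.76 (adjusted p = 0.0678, 0.0616 and 0.027). One member, *ugt-23*, fell from 4.57, 4.67 and 4.35 to 4.01, 3.80 and 3.78 (log2 change -0.67, standard error 0.12, adjusted p = 0.024).

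Some short-chain and aldehyde dehydrogenases rose. *dhs-2* was at 2.23, 2.19 and 1.75 on OP50 and 3.40, 3.87 and 4.05 on CNCM I-3690 (log2 change 1.72, standard error 0.28, adjusted p = 0.0112), and *dhs-19* rose from 4.79, 4.67 and 4.91 to 5.69, 5.44 and 5.52 (log2 change 0.76, standard error 0.11, adjusted p = 0.00502). The aldehyde dehydrogenase *alh-9* rose by 0.77 (adjusted p = 0.0116) and *W01A11.1*, listed among the epoxide hydrolases, by 0.66 (0.00867). These 4 genes were called in every fit without 1 array. The short-chain dehydrogenase *dhrs-4* rose by 0.85 (0.0347) and lost its call without CNCM I-3690 replicates 1 and 2 and OP50 replicate 3 (up to 0.164). Of the transferases, *gst-4* was called only without OP50 replicates 1 and 3 (adjusted p up to 0.185), *gst-10* only without OP50 replicate 1 and CNCM I-3690 replicate 2 (up to 0.314) and *ugt-41* in none of the 6 fits (up to 0.243). *cyp-37A1* was called only without OP50 replicate 3 (up to 0.181), and *cyp-32B1* was lost without CNCM I-3690 replicates 1 and 3 and OP50 replicate 3 (up to 0.173). *ugt-25* was lost without each CNCM I-3690 array and OP50 replicate 1 (up to 0.194), *ugt-21* without replicate 2 of either diet (0.131) and *ugt-23* without CNCM I-3690 replicates 2 and 3 and OP50 replicate 2 (up to 0.112).

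Genes of fatty acid synthesis fell where they were called, beside a share of 0.187% that fell over all genes with a probe set of their own. *fat-7*, a stearoyl-CoA desaturase that makes oleic acid, was at 4.67, 4.71 and 4.06 on OP50 and 2.14, 2.44 and 2.82 on CNCM I-3690, so that its level was 0.248 times that on OP50 (log2 change -2.01, standard error 0.37, adjusted p = 0.0258). Its paralogs *fat-6* and *fat-5* had changes of 0.23 (adjusted p = 0.95) and 0.14 (adjusted p = 0.992), and *fat-7* was the only one of 7 desaturases that was called. *elo-2*, which elongates palmitic acid, was at 5.71, 5.02 and 5.07 on OP50 and 3.90, 3.51 and 3.80 on CNCM I-3690 (log2 change -1.53, standard error 0.27, adjusted p = 0.0206), 1 of 11 elongases (median -0.21). *elo-5*, the elongase of branched-chain fatty acids, was lower on all 3 CNCM I-3690 arrays, with 7.46, 7.09 and 7.21 on OP50 and 6.06, 5.87 and 5.74 on CNCM I-3690, and just missed the threshold (log2 change -1.36, adjusted p = 0.102).

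In fat breakdown the called genes fell as well. Of 89 genes of fatty acid breakdown and lipases 2 fell and none rose (median -0.0029), where 0.187% of all genes fell and 0.374% rose. They were the lipase *lips-11*, at 3.02, 1.79 and 2.18 on OP50 and 1.02, 0.91 and 1.23 on CNCM I-3690 (log2 change -1.28, standard error 0.24, adjusted p = 0.0265), and *ech-7*, of the enoyl-CoA hydratase family, which fell by 0.87 (adjusted p = 0.0616). The acid ceramidase gene *asah-1*, which breaks ceramide down to sphingosine in the lysosome, rose from 4.40, 4.92 and 4.88 to 5.31, 6.10 and 6.23 (log2 change 1.15, standard error 0.23, adjusted p = 0.0426). *elo-2* was called in all 6 fits without 1 array. *fat-7* lost its call without CNCM I-3690 replicate 1 and OP50 replicate 2 (adjusted p up to 0.111), *lips-11* without CNCM I-3690 replicate 2 (0.125), *asah-1* without CNCM I-3690 replicates 2 and 3 and OP50 replicate 1 (up to 0.188), and *ech-7* without replicates 2 and 3 of either diet (up to 0.225).

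Genes that use or carry folate and methionine fell where they were called. *folt-2*, of the folate transporter family, was at 4.49, 3.44 and 3.15 on OP50 and 2.16, 1.86 and 2.11 on CNCM I-3690, a level 0.319 times that on OP50 (log2 change -1.65, standard error 0.30, adjusted p = 0.0243). *sams-2*, an S-adenosylmethionine synthetase, fell from 6.90, 7.39 and 7.43 to 6.46, 6.71 and 6.5 (log2 change -0.68, standard error 0.13, adjusted p = 0.0376), and a probe set it shares with *sams-3* fell by 0.80 (adjusted p = 0.0214). These 2 were called of 32 genes, and the median was -0.26, where 0.187% of all genes fell.

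In 2 members of this list the mean change was large and depended on 1 array. *acdh-1*, the acyl-CoA dehydrogenase of propionate breakdown whose expression is known to fall with vitamin B12, was at 7.98, 5.92 and 5.45 on OP50 and 3.52, 4.73 and 4.98 on CNCM I-3690 (log2 change -2.04, standard error 0.49, adjusted p = 0.107), and without OP50 replicate 1 the change was -1.28 (adjusted p = 0.171). *sams-1* was at 7.79, 5.51 and 5.36 and 4.95, 4.53 and 4.38 (log2 change -1.6, adjusted p = 0.299), and without that array the change was -0.81 (adjusted p = 0.506). In both genes OP50 replicate 1 lay far above the other OP50 arrays. *folt-2* was not called without CNCM I-3690 replicate 2 (adjusted p = 0.11), and *sams-2* was called only without OP50 replicate 1 and CNCM I-3690 replicate 2 (up to 0.158 otherwise). Without OP50 replicate 1, *folt-2* and *sams-2* changed by -1.25 (adjusted p = 0.0352) and -0.85 (adjusted p = 0.00263), and the median of the list was -0.18.

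Chaperones of the endoplasmic reticulum, which fold secreted proteins, fell where they were called. *hsp-3*, a BiP homolog, was at 6.77, 6.67 and 6.63 on OP50 and 6.21, 6.11 and 5.94 on CNCM I-3690. *crt-1* (calreticulin) was at 9.78, 9.80 and 9.76 and 9.01, 9.3 and 9.23, and *pdi-2*, a protein disulfide isomerase, at 7.18, 7.01 and 7.14 and 6.52, 6.45 and 6.27. In each the 3 OP50 arrays lay within a narrow band above all CNCM I-3690 arrays, and the changes were -0.60 (standard error 0.12, adjusted p = 0.0392), -0.60 (standard error 0.12, adjusted p = 0.0486) and -0.70 (standard error 0.16, adjusted p = 0.0924). A second *pdi-2* set was at -0.38 and was not called. *enpl-1*, the GRP94 homolog, was at -0.49 (adjusted p = 0.102), and *hsp-4*, the BiP paralog that marks the unfolded protein response, at 0.03 (adjusted p = 0.997). Of 17 such genes 3 fell and none rose (median -0.16), where 0.187% of all genes fell. *crt-1* was called only without OP50 replicate 1 and CNCM I-3690 replicate 2 (adjusted p up to 0.188 otherwise), *hsp-3* was lost without CNCM I-3690 replicates 2 and 3 and OP50 replicate 2 (up to 0.166), and *pdi-2* lost its call in each of these fits (up to 0.289).

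Of 35 histone genes 2 fell and none rose, with a median of -0.17, where 0.187% of all genes fell. The linker histone gene *hil-3* was at 6.68, 6.46 and 6.71 on OP50 and 5.55, 5.72 and 5.97 on CNCM I-3690 (log2 change -0.87, standard error 0.20, adjusted p = 0.0972), with -0.80 in its other set (adjusted p = 0.411), and *his-31*, an H4 gene, changed by -0.63 (standard error 0.15, adjusted p = 0.0975). Histone probe sets with a suffix letter can bind several near-identical copies, so *his-31* cannot be separated from them. *hil-3* lost its call when any 1 array was left out (adjusted p up to 0.33) and *his-31* kept its call only in the fit without CNCM I-3690 replicate 2 (up to 0.323 in the others).

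**Figure D4:**
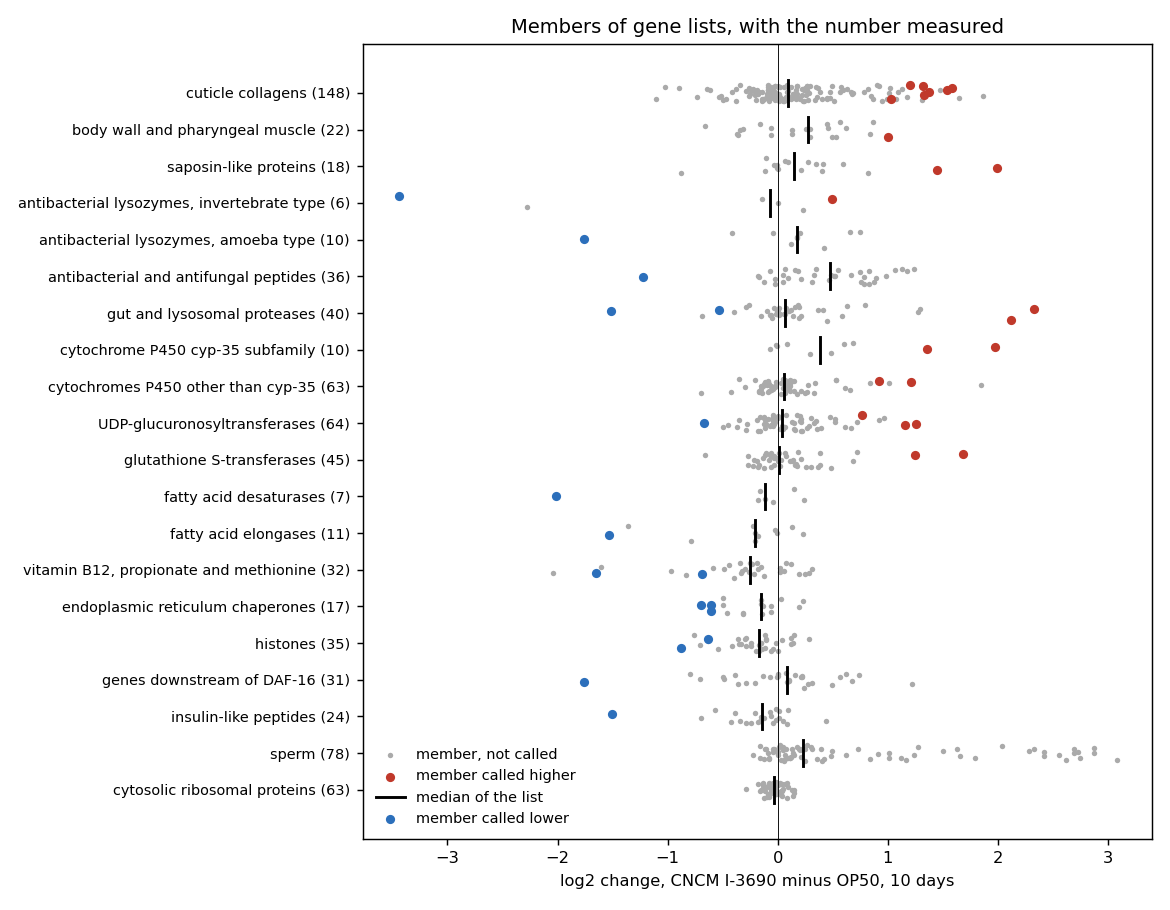
Log2 change of every measured member of 20 gene lists (x axis, CNCM I-3690 minus OP50 at 10 days), with members called higher in red, called lower in blue, the others in grey, and the median of the list as a black bar. Called members of the collagens, saposin-like proteins, cytochromes P450 and glutathione S-transferases lie only on the right, and those of the chaperones, histones, desaturases and elongases only on the left.

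Of the gene lists, the cuticle collagens, a long list, held the most called genes by number. Of 148 measured, 7 rose and none fell (median 0.09, 28 with an unadjusted p under 0.05). Over all genes with a probe set of their own, 0.374% rose and 0.187% fell. In shorter lists a larger part was called, as in 3 of 17 endoplasmic reticulum chaperones and 2 of 18 saposin-like genes. *col-106* was at 7.78, 7.51 and 7.35 on OP50 and 9.20, 8.55 and 8.88 on CNCM I-3690, a 2.51-fold rise (log2 change 1.33, standard error 0.15, adjusted p = 0.000346). *col-184* was at 8.31, 7.69 and 7.26 and 9.34, 8.74 and 9.13 (log2 change 1.32, standard error 0.23, adjusted p = 0.0194), and *col-181* at 7.64, 6.88 and 6.42 and 8.59, 7.96 and 8.51 (log2 change 1.37, standard error 0.24, adjusted p = 0.0214). In all 7, OP50 replicate 1 was the highest OP50 array, and replicate 1 of CNCM I-3690 was the highest of its group in each but *col-98*. *col-140*, *col-124*, *col-122* and *col-98* rose by 1.59, 1.53, 1.20 and 1.03 (adjusted p = 0.045, 0.0645, 0.0258 and 0.0954), and a probe set shared by *col-179* and *col-178* by 1.48 (0.0705). The sequences of these genes are alike, and some of their probe sets carry a suffix letter for probes that match several transcripts.

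The collagen count depended on OP50 replicate 1. Without it 23 of 148 collagens rose and none fell, and the median was 0.23. *col-139* and *col-8*, at 1.86 (adjusted p = 0.105) and 1.47 (adjusted p = 0.102) with all arrays, were at 2.08 (adjusted p = 0.0776) and 1.69 (adjusted p = 0.0547). Muscle genes behaved likewise. With all arrays 1 of 22 rose, *unc-27* (troponin I), from 5.96, 5.17 and 5.09 to 6.88, 6.25 and 6.10 (log2 change 1.0, standard error 0.22, adjusted p = 0.0678), and the median was 0.27. Without that array 10 rose, the myosin heavy chain gene *unc-54* at 1.15 (adjusted p = 0.00754) and the troponin C gene *pat-10* at 1.02 (adjusted p = 0.00207) among them, and the median was 0.80. All 22 muscle genes and 103 of the 148 collagens were highest on that array among the OP50 arrays. Leaving it out therefore had to lower their OP50 mean, so the larger counts are no separate evidence of a rise. Over all probe sets the called rises went from 81 to 165 in that fit. *col-106*, *col-184* and *col-181* were called in all 6 fits without 1 array. *col-140* and *col-98* were called only without OP50 replicate 1 and CNCM I-3690 replicate 2 (adjusted p up to 0.178 and 0.323 otherwise), *col-124* only without OP50 replicate 1 (up to 0.24), *unc-27* only without OP50 replicate 1 and CNCM I-3690 replicate 3 (up to 0.26), and *col-122* was lost without CNCM I-3690 replicates 1 and 3 (up to 0.125).

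Insulin-like peptides act as signals between tissues, and 1 of 24 was called. *ins-2* was at 3.49, 3.24 and 3.57 on OP50 and 1.57, 2.05 and 2.15 on CNCM I-3690, a level 0.352 times that on OP50 (log2 change -1.51, standard error 0.27, adjusted p = 0.0236), and it lost its call without CNCM I-3690 replicate 1 (adjusted p = 0.105). The median of the list was -0.14. Of 31 genes known to lie downstream of the FOXO factor DAF-16, only *lys-7*, described above, was called (median 0.09). *sod-3* was at 0.22 (adjusted p = 0.779), *mtl-1* at -0.36 (adjusted p = 0.952) and *hsp-12.6* at 0.62 (adjusted p = 0.659). None of 24 components of insulin and TOR signalling was called by limma, and 0 had an unadjusted p under 0.05. Over all genes with a probe set of their own, 0.561% were called. By that share alone, lists of these sizes would hold few or no called genes.

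Some of the genes that the study named in young worms, 6 in all, were looked up at 10 days. The study named them for a difference between its *Lactobacillus* strains, so the comparator there was CNCM I-4317. It also reported most of the genes that differed between the strains as different from OP50. By RT-qPCR it reported *gst-22* as higher on CNCM I-3690 than on OP50. In the fit used here, *fat-7* (0.58, adjusted p = 0.44) and *gst-22* (0.77, adjusted p = 0.194) were not called against OP50 at 3 days. *lec-11*, *hsp-12.3*, *spp-16* and *cpr-3* were called higher there. Of these 6, *fat-7* fell against OP50 at 10 days, as given above, and the others were not called. *gst-22*, a glutathione S-transferase, was at 3.34, 4.07 and 3.47 on OP50 and 4.48, 4.50 and 3.94 on CNCM I-3690 (log2 change 0.68, adjusted p = 0.667). The galectin *lec-11* was at 0.68 (adjusted p = 0.228), the small heat shock gene *hsp-12.3* at 0.09 (adjusted p = 0.995), the saposin-like *spp-16* at 0.21 (adjusted p = 0.862) and a probe set of the protease *cpr-3* at 0.14 (adjusted p = 0.983). Of the genes not called, *lec-11* and *spp-16* were higher on every CNCM I-3690 array than on any OP50 array, and the others overlapped. Of all probe sets, 5.49% were higher in that way.

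Of 17 enzymes of histidine, tryptophan and biopterin pathways 1 rose and 1 fell. *cat-4*, the GTP cyclohydrolase that makes biopterin for serotonin and dopamine synthesis, rose from 4.77, 4.99 and 4.85 to 5.76, 5.65 and 5.67 (log2 change 0.82, standard error 0.17, adjusted p = 0.0486). *haly-1*, histidine ammonia-lyase, fell from 3.15, 2.53 and 2.59 to 2.03, 2.01 and 1.54 (log2 change -0.89, standard error 0.18, adjusted p = 0.0486). *trx-3*, a thioredoxin of the intestine, fell by 0.68 (adjusted p = 0.076), 1 of 25 antioxidant enzymes. Among membrane and signalling genes, *unc-2*, the pore subunit of a neuronal calcium channel, fell by 0.54 (0.0236), *scd-2*, a receptor tyrosine kinase of the ALK family, by 0.56 (0.0495), and the potassium channel gene *twk-5* rose by 0.61 (0.0166). In *unc-2*, *scd-2* and *twk-5* 1 probe set of several was called, and the others were closer to 0 (0.31 in *twk-5*). Both group means of *unc-2* (1.28 on OP50 and 0.74 on CNCM I-3690) lay under the highest array median. *unc-2* and *twk-5* were called in every fit without 1 array. *haly-1* was lost without CNCM I-3690 replicate 3 and OP50 replicate 1 (adjusted p up to 0.203), *cat-4* was called only without OP50 replicate 1 (up to 0.151), *scd-2* only without OP50 replicate 2 (up to 0.173) and *trx-3* only without CNCM I-3690 replicate 2 (up to 0.295).

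Several of the largest changes were in genes for which no role is given here. *D1086.3* was at 3.48, 2.32 and 3.36 on OP50 and 6.39, 5.15 and 5.82 on CNCM I-3690, a 6.64-fold rise (log2 change 2.73, standard error 0.36, adjusted p = 0.00154). *H25K10.4* was at 1.97, 1.23 and 1.85 and 4.10, 3.81 and 4.07, a 4.95-fold rise (log2 change 2.31, standard error 0.17, adjusted p = 3.66e-06), which shares the lowest adjusted p of the comparison with an unnamed probe set that rose by 2.26. In both named genes the lowest CNCM I-3690 array lay well above the highest OP50 array. The *H25K10.4* set carries a suffix letter, so its probes can match other transcripts. *Y110A2AL.9* rose from 1.49, 1.59 and 1.36 to 3.59, 3.13 and 3.12 (log2 change 1.80, standard error 0.22, adjusted p = 0.000776). *Y110A2AL.3* is the next protein-coding gene in the RefSeq annotation of assembly WBcel235. It rose by 1.23 (adjusted p = 0.0262, and up to 0.111 without CNCM I-3690 replicate 1 or OP50 replicate 3). In the same annotation *spp-12* and *cyp-35C1* have 2 protein-coding genes between them.

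*W02G9.4* was at 4.52, 3.76 and 3.60 on OP50 and 5.69, 5.35 and 5.61 on CNCM I-3690 in one probe set, and it rose in both of its sets, by 1.59 and 1.19 (adjusted p = 0.00657 and 0.0265). *F08D12.3* was at 2.0, 2.02 and 2.01 on OP50 and 3.17, 3.23 and 3.09 on CNCM I-3690 in one probe set (log2 change 1.15, standard error 0.11, adjusted p = 3.56e-05), while its other 2 sets were at 0.67 and -0.09 (adjusted p = 0.364 and 0.969). *spig-20* was at 4.95, 6.0 and 5.55 on OP50 and 7.11, 6.91 and 6.96 on CNCM I-3690. *spig-20*, *epic-1* and *exh-1* rose by 1.49, 1.41 and 1.1 (adjusted p = 0.0258, 0.0137 and 0.0112). F-box proteins pick targets for degradation, and 3 of 171 F-box A genes rose, *fbxa-163* by 0.68 (0.00175), *fbxa-107* by 0.82 (0.0719) and *fbxa-99* by 0.48 (0.076). The second *W02G9.4* set lost its call without CNCM I-3690 replicate 1 and OP50 replicates 2 and 3 (adjusted p up to 0.126) and *spig-20* without CNCM I-3690 replicate 1 (0.101). *fbxa-107* was called only without OP50 replicate 2 (up to 0.226 otherwise) and *fbxa-99* only without OP50 replicate 1 and CNCM I-3690 replicate 2 (up to 0.266), and the other genes of this paragraph were called in every fit.

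Among the falls, *C14C6.5* was at 7.19, 7.30 and 6.95 on OP50 and 4.8, 4.44 and 3.47 on CNCM I-3690 in one probe set (log2 change -2.91, standard error 0.29, adjusted p = 7.26e-05) and changed by -2.80 in the other (adjusted p = 3.56e-05). These are 0.133 and 0.144 times the levels on OP50. *mbug-1* fell from 7.22, 8.69 and 7.83 to 5.58, 6.06 and 6.07 (log2 change -2.01, standard error 0.38, adjusted p = 0.0265), and *F14H12.3*, at 4.39, 5.23 and 4.82 on OP50 and 3.31, 3.18 and 3.15 on CNCM I-3690 in its first set, fell in both sets, by 1.6 and 1.44 (adjusted p = 0.0486 and 0.0166). *C50F7.5* was at 4.43, 4.71 and 4.37 on OP50 and 2.85, 3.32 and 3.25 on CNCM I-3690. *endu-2*, an EndoU-type endoribonuclease gene, fell by 1.38 (0.0612), *C50F7.5* by 1.37 (0.0486) and *F59C12.4* by 1.36 (0.0678). For *C50F7.5* and *endu-2* 1 probe set was called of 3 and 2. *C14C6.5* was called in all 6 fits without 1 array in both sets. *mbug-1* was lost without CNCM I-3690 replicate 1 and OP50 replicate 2 (adjusted p up to 0.122), *C50F7.5* was called only without OP50 replicate 1 (up to 0.186), *endu-2* only without CNCM I-3690 replicate 1 and OP50 replicate 2 (up to 0.257) and *F59C12.4* only without CNCM I-3690 replicate 1 and OP50 replicate 3 (up to 0.271). The first *F14H12.3* set was called only without OP50 replicate 1 (up to 0.192) and the second in all 6 fits.

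Many lists held no called gene. Over all genes with a probe set of their own only 0.561% were called, so lists of these sizes would hold few or no called genes by that share alone. This was so for 63 cytosolic ribosomal proteins (median -0.03, 0 with an unadjusted p under 0.05), 33 proteasome subunits (0.03, 0) and 48 genes of the mitochondrial respiratory chain (-0.06, 1). None of 254 nuclear hormone receptors was called (-0.02, 16), nor any of 50 oocyte and eggshell genes (0.06, 0) or 39 genes of germline proliferation and meiosis (0.03, 2). The 5 yolk protein genes had changes between -0.08 and 0.34, and *vit-2* was at 0.34 (adjusted p = 0.471). Of 17 intestinal markers none was called (4 with an unadjusted p under 0.05, median -0.16), and the largest mean change among them was that of the peptide transporter gene *pept-1*, which was at 4.37, 2.18 and 2.22 on OP50 and 1.90, 1.61 and 2.13 on CNCM I-3690 (log2 change -1.04, adjusted p = 0.659). For 18 cytosolic and small heat shock genes the median was 0.28 and none was called (4 with an unadjusted p under 0.05).

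The same diets had also been compared after 3 days, on other arrays. There, 1385 probe sets were called between CNCM I-3690 and OP50 (6.12%), with 3.85% of all probe sets higher and 2.27% lower. Of the 122 called at 10 days, 11 were called in the same direction at 3 days (10 higher and 1 lower), 5 in the opposite direction, and the rest were not called. The difference between the changes at 10 and at 3 days was tested in the same model and called for 183 of all probe sets (0.809%, and 13.1% had an unadjusted p under 0.05), 38 of the 122 among them. That count of 183 depended on single arrays. It was 32 and 40 without CNCM I-3690 replicates 2 and 3 of 10 days, 85 and 102 without OP50 replicates 1 and 2 of 10 days, 25, 26 and 1119 without CNCM I-3690 replicates 1, 2 and 3 of 3 days, and 36 and 49 without OP50 replicates 2 and 3 of 3 days.

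Some genes changed in the same direction at both times. *gst-4* changed by 1.31 at 3 days (standard error 0.25, adjusted p = 0.0116) and by 1.24 at 10 days, and *cpr-8* by 1.1 (adjusted p = 0.0575) and 2.32. *exh-1* and *spig-20* changed by 1.11 and 1.21 at 3 days (adjusted p = 0.00474 and 0.0266). *F59C12.4* was the gene called lower at both times, at -1.05 at 3 days (0.0646).

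Other genes turned. *cyp-35C1* was lower on CNCM I-3690 at 3 days, with 3.84, 4.30 and 4.32 on OP50 and 3.16, 3.04 and 2.84 on CNCM I-3690 (change -1.14, adjusted p = 0.00417), and higher at 10 days. The difference between the times was 2.50 (standard error 0.24, adjusted p = 0.000201), and the arrays of the diets did not overlap at either time. *haly-1* was at 4.03, 3.99 and 4.27 on OP50 and 4.98, 5.11 and 4.66 on CNCM I-3690 at 3 days (change 0.82, adjusted p = 0.0256) and fell at 10 days, a difference of -1.71 (standard error 0.26, adjusted p = 0.0096). *ugt-23* changed by 0.62 at 3 days and -0.67 at 10 days (difference -1.29, standard error 0.17, adjusted p = 0.00307), and *W01A11.1* by -0.33 and 0.66 (difference 0.99, standard error 0.14, adjusted p = 0.00659).

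For the largest falls the change appeared at 10 days with no call at 3 days. *ilys-2* had a mean of 0.65 on OP50 at 3 days and 4.75 at 10 days, against 1.30 on CNCM I-3690 at 10 days, and its difference between times was -3.30 (standard error 0.45, adjusted p = 0.00438). At 3 days it was near the floor of the arrays on both diets (change -0.14, adjusted p = 0.872), where a fall could hardly show. Both *C14C6.5* sets differed between times, by -3.21 (standard error 0.35, adjusted p = 0.000586) and -3.10 (standard error 0.41, adjusted p = 0.00307). *fat-7* changed by 0.58 at 3 days (adjusted p = 0.44) and -2.01 at 10 days, a difference of -2.59 (standard error 0.52, adjusted p = 0.0583). In *abf-2* and *lys-7* the means on OP50 were 0.97 and 6.01 at 3 days and 5.96 and 9.36 at 10 days, with 4.73 and 7.60 on CNCM I-3690 at 10 days. The difference between times was not called for either, and *abf-2* was near the floor of the arrays at 3 days.

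**Figure D5:**
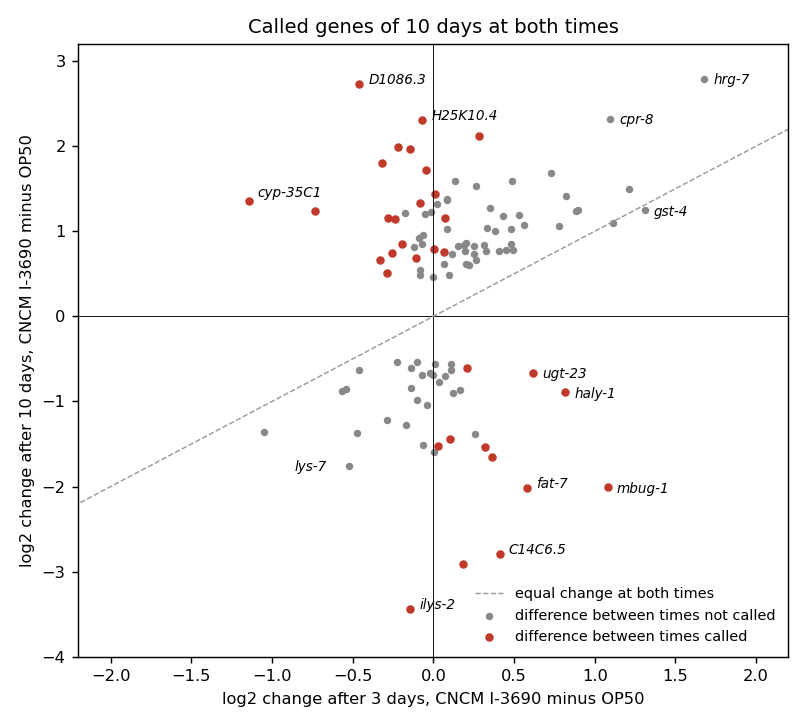
Log2 change between CNCM I-3690 and OP50 after 3 days (x axis) and after 10 days (y axis) for the 112 called probe sets of 10 days with 1 symbol, with those whose difference between times was called in red and the line of equal change dashed. Most points lie near 0 on the x axis, *gst-4* lies near the dashed line, and *cyp-35C1*, *haly-1* and *ugt-23* lie on opposite sides of 0 at the 2 times.

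The other *Lactobacillus* strain, CNCM I-4317, was compared with the same OP50 arrays at 10 days, so its changes share their control arrays with those above and are given only as values. There, 212 probe sets were called (0.937%). *ilys-2* changed by -2.59 (adjusted p = 0.00118) on CNCM I-4317, *lys-7* by -1.95 (adjusted p = 0.00897), *fat-7* by -2.17 (adjusted p = 0.0123) and *cpr-2* by -1.52 (adjusted p = 0.0123). Of the rises, *hrg-7* was at 3.85 (adjusted p = 0.00486), *cpr-8* at 2.75 (adjusted p = 0.000308), *asp-17* at 2.36 (adjusted p = 0.00018), *cyp-35A3* at 2.12 (adjusted p = 3.01e-05) and *gst-4* at 1.34 (adjusted p = 0.0273). The collagens *col-140* and *col-106* were at 0.0033 (adjusted p = 0.999) and 0.66 (adjusted p = 0.0691), *spp-4* at 0.49 (adjusted p = 0.467), *dhs-19* at 0.22 (adjusted p = 0.499), *folt-2* at -0.30 (adjusted p = 0.777) and *crt-1* at -0.17 (adjusted p = 0.668).

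The direct test between the strains at 10 days called 4 of all probe sets (0.0177%, with 1634 at an unadjusted p under 0.05), and 1 of the 122 was among them. This was *H25K10.4*, at 4.10, 3.81 and 4.07 on CNCM I-3690 and 3.14, 3.11 and 2.65 on CNCM I-4317, a difference of 1.02 (standard error 0.17, adjusted p = 0.0996). Its probe set carries a suffix letter, as given above. For the others the test did not show a difference between the strains. *col-140* differed by 1.58 (standard error 0.32, adjusted p = 0.19) and *folt-2* by -1.35 (standard error 0.30, adjusted p = 0.259).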

How the data were processed

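RNA of whole N2 worms was hybridized to 18 Affymetrix arrays, 3 for each of 6 groups of diet and feeding time. The authors deposited log2 expression values of 22625 probe sets, made with RMA and quantile normalization (versions not given in the sources used here), and the scale was kept. The probe annotation that GEO gives the platform, with symbols updated through RefSeq (assembly WBcel235), gave 1 symbol to 20766 probe sets, several to 887 and none to 972. A gene's list entry was its own probe set of highest mean.

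In R 4.3.3, limma 3.58.1 (lmFit, eBayes) was fitted once to the means of the 6 groups (12 residual and 4.09 prior degrees of freedom), and CNCM I-3690 minus OP50 at 10 days was tested. P-values were adjusted by the Benjamini-Hochberg method over all 22625 probe sets, 77 controls included, and probe sets under 0.10 were called. The study's methods state a threshold of 0.01, but its gene lists run up to about 0.10, so 0.10 was used and 0.05 and 0.01 were run as alternatives. The same model gave the changes at 3 days, the difference between the times, and the changes on CNCM I-4317. Arrays have no read depth, and their number limits the precision.

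Genes described with values per array came mainly from the 15 largest called rises and falls and from up to 4 called members of each list, and uncalled members were chosen by p-value or as paralogs. The comparison, the 54 gene lists and this rule were chosen with earlier results of these data known. Alternatives changed the threshold, the arrays in the fit, the scaling, the moderation, the probe sets, a replicate block, and left out each array in turn. The procedure was tested on simulated data with independent noise for each probe set. Shifts that many genes of an array share were not simulated, so that test cannot speak to them. No sequences were used here. Gene order came from the start positions of protein-coding genes in the RefSeq annotation.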

Additional observations from a re-analysis of the deposited data

Results flagged for a closer look

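For 33 of the 112 called probe sets with 1 symbol, the change between CNCM I-3690 and OP50 differed between 10 and 3 days when the difference itself was tested in the limma model (adjusted p under 0.10), and 21 of them were more positive at 10 days. The number of such calls over all probe sets varied widely when single arrays were left out. Several of these genes were near the floor of the arrays on both diets at 3 days, where a change between diets could hardly show. The 3-day means on OP50 and CNCM I-3690 were 1.13 and 0.92 for *spp-12*, 1.11 and 1.39 for *asp-17* and 0.95 and 0.81 for *cyp-35A3*. *ilys-2*, *cpr-2*, *clec-210*, *H25K10.4* and *fbxa-163* were low on both diets then as well.

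Among genes of the gut and of defence, the difference (change at 10 days minus change at 3 days, on the log2 scale) was 2.21 for *spp-12* and 1.43 for *spp-4* (saposin-like proteins), 1.84 for *asp-17*, -1.55 for *cpr-2*, 0.78 for *clec-210* and -3.30 for *ilys-2*. The enzymes of detoxification and related dehydrogenases were at 2.12 for *cyp-35A3*, 2.50 and 1.97 for both probe sets of *cyp-35C1*, 1.43 for *ugt-25*, -1.29 for *ugt-23*, 1.77 for *dhs-2*, 0.69 for *dhs-19*, 1.04 for *dhrs-4* and 0.99 for *W01A11.1*. Lipid and cofactor genes were at 1.39 for *asah-1*, -1.85 for *elo-2*, -2.59 for *fat-7*, -2.01 for *folt-2* and -1.71 for *haly-1*. The chaperone *hsp-3* was at -0.81 and the collagen *col-106* at 1.41.

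Genes given without a role were at 3.19 for *D1086.3*, 2.38 for *H25K10.4*, 2.12 for *Y110A2AL.9*, 1.08 for *F08D12.3*, 0.998 for *T20F5.7*, 0.79 for *Y57G11C.36* and 0.79 for the F-box gene *fbxa-163*. On the negative side *F14H12.3* was at -1.54, *mbug-1* at -3.09 and the probe sets of *C14C6.5* at -3.10 and -3.21. Worms of 3 and 10 days were separate samples, so age and sample cannot be told apart within a group.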

How the results depend on the processing

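The count of 122 probe sets (81 higher, 41 lower) was 80 (53, 27) at an adjusted p under 0.05 and 19 (16, 3) under 0.01. It was 33 (23, 10) with the 9 arrays of 10 days alone and 73 (43, 30) with the 6 arrays of the comparison, where fewer arrays estimate the spread. With the mean of the *msp* genes as a term, chosen after seeing the data, it was 75 (48, 27). In these fits 26, 47 and 64 of the 122 kept their call. Without 1 array it lay between 71 and 221 (48 to 165 higher, 18 to 56 lower), and the cause was not tested. Other scalings, probe set choices and moderation gave at most 152, within 1.5 times of it. Centring on the median moved the median change to 0.02 and the share of rises from 66.4% to 75.9%.

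Same-numbered arrays deviated together with correlations of 0.31, 0.20 and 0.09, and CNCM I-3690 replicate 2 correlated best with OP50 replicate 3, so the numbers were not taken to pair the samples. With a replicate block 111 probe sets were called (74 higher, 37 lower), 92 of the 122 among them, and 409 for the difference between times.

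That difference, called for 183 probe sets, was called for 42 and 14 at adjusted p under 0.05 and 0.01, for 54 with the *msp* term and for 25 to 1119 without 1 array. The test between the strains, with 4 calls, gave 0 under 0.01, 1 with 9 arrays, 7 with trended and robust moderation and 0 to 17 without 1 array. Of single called probe sets none changed direction under any alternative, and 695 of the pairings of probe set and alternative lost the call while 1381 kept it. With 3 arrays a group, changes near the floor of the arrays are bounded less well.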
